A study of Drosophila melanogaster with 8 samples.

Results

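U is the part of the Drosophila melanogaster assembly in which scaffolds that could not be placed on a chromosome are joined end to end. It was 10.0 Mb long in FlyBase release 5, and neighbouring positions on it need not be neighbours on a chromosome. HP1a-enriched regions were assigned to U by the sequence name that each deposited list gives them. Of the 5697 regions of the authors' combined set, 852 lay on U, which was 15.0% of that list. The 4 lists called from the separate ChIP samples held 1249, 1095, 1172 and 1157 regions on U in replicates 1 to 4, out of 5406, 5127, 4903 and 4260 regions in all. U therefore held 23.1%, 21.4%, 23.9% and 27.2% of the regions of those lists.

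Chromatin immunoprecipitation and sequencing were carried out on wild-type Oregon-R embryos aged 14 to 16 h with the antibody wa191 against HP1a. The series had 4 ChIP samples, each called, per the labels, against the input that bears its replicate number, and 4 inputs, with no contrast of genotype, treatment or stage. The submitters gave replicates 1 and 2 the experiment numbers 1914 and 1916, and replicates 3 and 4 the numbers 2026 and 2027. The labels do not tell if separate embryo collections were used, so the spread between replicates may be technical. Read depth is unknown, and a missing region may lie just under a list's threshold.

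HP1a is the heterochromatin protein encoded by Su(var)205. Its chromodomain binds methylated histone H3, its chromoshadow domain binds a second HP1a molecule and partner proteins, and together these let it coat long stretches of chromatin around centromeres. Drosophila heterochromatin is rich in transposon remnants and satellite repeats, which are hard to assemble, and unplaced scaffolds come largely from such sequence. In the accounts that follow, the arms are 2L, 2R, 3L, 3R and X without the 2 Mb at their centromere-side ends, and the Het scaffolds are the 6 scaffolds whose names end in Het, which the assembly assigns to the heterochromatin of a chromosome.

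Enriched regions covered more of U than of the arms in every replicate, and less than of the 6 Het scaffolds pooled. The covered share, which is the percentage of the bases of U that lie in an enriched region, was 54.4%, 70.2%, 48.7% and 46.4% in replicates 1 to 4. Replicate 2 was the highest and replicates 3 and 4 were the lowest, with a mean of 54.9% ± 10.7 (SD, n = 4). On the arms the same lists covered 5.85%, 6.60%, 5.07% and 4.05%, so no value of U came near a value of the arms. The share of U was 9.30, 10.6, 9.62 and 11.5 times that of the arms, a mean log2 ratio of 3.35 ± 0.14. That ratio was 4.60 in the higher-scoring 50% of each list and 2.41 by regions per Mb, above 0 in every replicate in both. Flipping the signs of the 4 log2 ratios in all ways, an exact permutation test that was two-sided, gave p = 0.125. With 4 replicates no smaller p is possible, so none of the 7 exact tests of this kind can reach 0.05 (Benjamini-Hochberg adjusted p = 0.146).

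Pooled, the Het scaffolds were covered over 59.2%, 70.8%, 64.2% and 66.3%, and U was the lower in each of the 4 replicates, by less than 1 percentage point in replicate 2. The ratio of U to the Het scaffolds was close to 1 in replicates 1 and 2, at 0.920 and 0.992, and lower in replicates 3 and 4, at 0.759 and 0.701. The mean log2 ratio was -0.26 ± 0.23 (SD, n = 4; exact permutation p = 0.125, adjusted p = 0.146). With regions merged over gaps of 1 kb or less, replicate 2 stood at 0.00 (exact permutation p = 0.25). In the higher-scoring 50%, replicate 1 stood at 0.012 (exact permutation p = 0.375), so U was not the lower in each replicate under either setting. Counted as regions per Mb instead of covered bases, this difference turned round. U held 124, 109, 117 and 115 regions per Mb against 95.3, 74.1, 84.6 and 75.1 on the Het scaffolds, a mean log2 ratio of 0.50 ± 0.10 with all 4 replicates above 0.

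**Figure D1:**
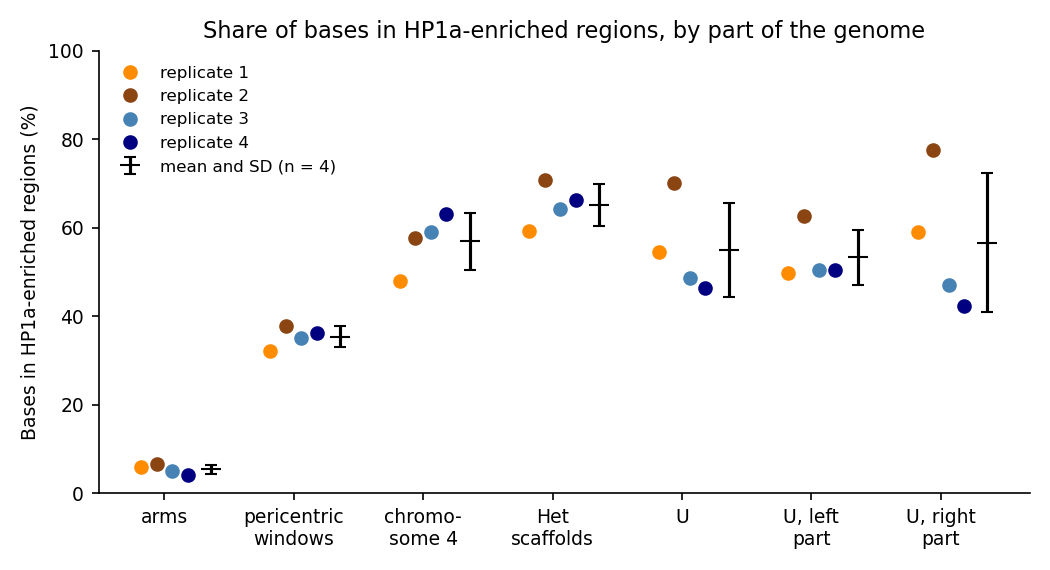
Percentage of bases in HP1a-enriched regions (vertical axis, linear from 0) in each replicate (points) for parts of the genome, with the mean and SD over 4 replicates beside them. U had a mean of 54.9%, against 65.1% for the Het scaffolds and 5.39% for the arms, and its replicates lay farther apart, in percentage points, than those of the Het scaffolds, chromosome 4 and the arms.

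By mean covered share U ranked 6 among the 13 sequences in the lists. Next above it was chromosome 4 with 56.9% ± 6.48 (SD, n = 4), and above that 2RHet with 61.8% ± 4.91. Chromosome 4 was covered over 47.9%, 57.8%, 59.0% and 63.1% in replicates 1 to 4, against 54.4%, 70.2%, 48.7% and 46.4% for U. U was thus the higher in replicates 1 and 2 and the lower in replicates 3 and 4. In replicate 2 alone, 2RHet was below U, at 67.1%. Next below U were YHet with 39.0% ± 7.32 and XHet with 29.8% ± 5.13, both covered less than U in every replicate. The SD of U, 10.7 percentage points, was the largest of the 13 sequences. As a ratio of replicates 1 and 2 to replicates 3 and 4, the spread was 1.31 on U and 1.36 on the arms.

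Along U the covered share fell unevenly from the start to about 5.5 Mb, rose within less than 1 Mb, and after that differed between the replicates. In the window from 1 to 1000000 the 4 lists covered 60.1%, 71.2%, 62.3% and 66.2%, a mean of 65.0% ± 4.89 (SD, n = 4). From 4000001 to 5000000 they covered 38.2%, 47.3%, 33.9% and 31.6%, the lowest mean of the 10 windows of 1 Mb at 37.8% ± 6.93. The values of these windows did not overlap. The 500 kb from 5000001 to 5500000 were covered over 31.0%, 42.7%, 34.3% and 30.7%, and the next 500 kb, to 6000000, over 63.5%, 81.3%, 64.7% and 63.2%. All 4 replicates rose there, a step that was picked out after the profile was seen.

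Beyond 6 Mb, in windows of 1 Mb, replicate 2 stayed above 76%, replicate 1 fell and rose again, and replicates 3 and 4 declined. From 6000001 to 7000000 the shares were 71.0%, 85.3%, 63.7% and 55.1%. From 8000001 to 9000000 they were 53.0%, 76.8%, 38.7% and 35.7%. From 9000001 to 10000000 they were 62.3%, 82.3%, 38.9% and 35.7%, so replicates 3 and 4 did not recover as replicates 1 and 2 did. The mean of replicates 1 and 2 was 1.02 times that of replicates 3 and 4 in the window to 1000000. It was 1.31 times in the window to 5000000, 1.13 times in that to 6000000 and 1.32 times in that to 7000000. In the 3 windows that follow it was 1.68, 1.74 and 1.94 times. The ratio did not rise steadily along U, and it also fell from the window to 3000000 to that to 4000000. A contrast of 2 replicates with 2 cannot reach 0.05 in an exact test. The authors' combined set did not follow the decline, and covered 92.5%, 93.9%, 91.9% and 93.1% of the last 4 windows of 1 Mb.

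**Figure D2:**
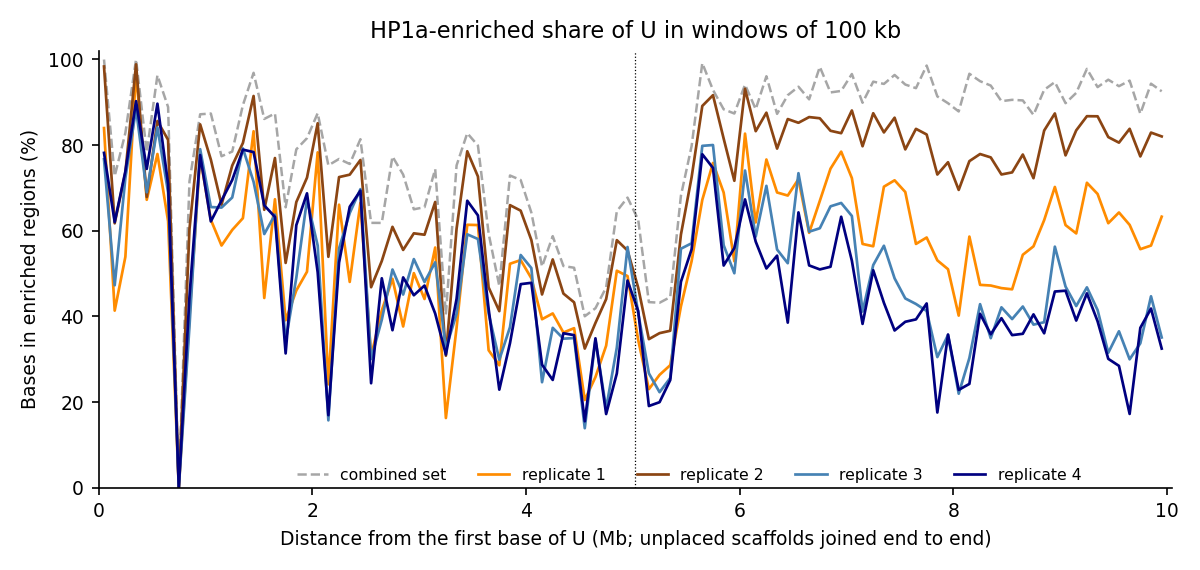
Percentage of bases in enriched regions (vertical axis) in windows of 100 kb, against the distance from the first base of U in Mb (horizontal axis), for the 4 replicates and the combined set; the dotted line is the midpoint of U. All lists fall to 0 in the window from 700001 to 800000 and rise after 5.5 Mb, and replicates 1 and 2 lie above replicates 3 and 4 in all 30 windows of the last 3 Mb.

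U was divided at its midpoint into a left and a right part of 5.02 Mb each. The left part was covered over 49.7%, 62.6%, 50.3% and 50.5% in replicates 1 to 4, and the right part over 59.1%, 77.7%, 47.1% and 42.4%. The right part was the more covered in replicates 1 and 2, and the left part in replicates 3 and 4. The mean log2 ratio of left to right was -0.05 ± 0.27 (SD, n = 4), with 2 replicates on either side of 0 (exact permutation p = 0.875, adjusted p = 0.875). Comparing the first 20% of U with the last 20% turned the sign of the mean, to 0.35, with replicate 2 below 0 and the other 3 above. In number of regions the right part was the denser in every replicate, at 151, 127, 139 and 137 regions per Mb against 97.5, 90.8, 94.7 and 93.5 in the left part.

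Of the 100 windows of 100 kb on U, 59 had replicates 1 and 2 both above replicates 3 and 4. Over all 1396 such windows of the genome the share was 45.6%, and on the arms it was 47.2%, against 59 of 100 on U. The 59 windows were unevenly placed, with 18 of 50 in the left part and 41 of 50 in the right part, among them all 30 windows of the last 3 Mb. The opposite order, replicates 3 and 4 both above, was found in 2 windows of U, against 10.2% of all windows. On the Het scaffolds the orders were about equally frequent, at 17 and 18 of 93 windows. On chromosome 4 they were found in 0 and 8 of 14 windows. Replicate 2 had the highest share of the 4, or was level with it, in 92 of the 100 windows of U. These include the window from 700001 to 800000, where all 4 had 0. Replicate 2 was above replicate 1 in 99.

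The windows with the highest mean shares lay near the start of U. From 300001 to 400000 the lists covered 97.1%, 98.8%, 88.5% and 90.2%, from 500001 to 600000 77.9%, 85.6%, 84.1% and 89.6%, and from 1 to 100000 84.0%, 98.3%, 76.7% and 78.2%. The 3 lowest windows were that from 700001 to 800000, where no list had a base, that from 4500001 to 4600000 with a mean of 20.6% ± 8.41, and that from 5100001 to 5200000 with 25.9% ± 6.65 (SD, n = 4). The widest gap between the replicate pairs was in the window from 9600001 to 9700000, with 61.4% and 83.8% in replicates 1 and 2 against 30.0% and 17.2% in the other pair. In the window from 9400001 to 9500000 the shares were 61.8% and 81.9% against 31.5% and 30.1%, and from 8100001 to 8200000 they were 58.6% and 76.2% against 30.3% and 24.3%. The combined set covered 95.0%, 95.2% and 96.6% of these 3 windows. The 2 windows with the opposite order showed gaps of only 1.09 percentage points, from 400001 to 500000, and 0.282, from 3200001 to 3300000.

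No list had an enriched region from 695004 to 815049, a stretch of 120046 bp. It was the longest such stretch of U, where the next were 22316 bp from 4117454 to 4139769, 20305 bp between 1110188 and 1130492, 18915 bp between 4730783 and 4749697, and 18174 bp between 5288497 and 5306670. The free length around the longest stretch was 127177, 120354, 123729 and 123432 bp in replicates 1 to 4, so the 4 lists stopped and resumed within a few kb of each other. The Het scaffolds held a longest stretch of similar length, 111925 bp on 2RHet. They had 34 stretches of at least 10 kb over 9.28 Mb, against 15 over the 10.0 Mb of U. Of those 15, 12 lay in the left part, 3 in the right part, and 8 between 4 and 5.5 Mb. The bases in no list made up 18.0% of U, 26.5% of its left part and 9.49% of its right part, against 18.9% of the Het scaffolds. Assembly gaps and repeats within U were not analysed here.

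The regions of U were intermediate in width, wider than those of the arms and narrower than those of the Het scaffolds. Their median width was 2979, 4114, 2812.5 and 2495 bp in replicates 1 to 4, with replicate 2 the highest, a mean of 3100 ± 705 bp (SD, n = 4). On the arms it was 2053.5, 2079, 2046 and 2029 bp, and on the Het scaffolds 3696, 5272, 4865 and 5110 bp. The log2 ratio of U to the arms was 0.57 ± 0.29 and that of U to the Het scaffolds -0.62 ± 0.35 (SD, n = 4), each with 1 sign in all 4 replicates (exact permutation p = 0.125, adjusted p = 0.146 for both). Merging regions 1 kb or less apart gave 1.10 for the former and -0.75 for the latter.

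Wide blocks were scarcer on U than on the Het scaffolds, and most scarce in the right part in replicates 3 and 4. Regions of at least 10 kb numbered 98, 172, 68 and 77 on U in replicates 1 to 4, and held 27.4%, 46.5%, 22.7% and 27.2% of the bases in regions. On the Het scaffolds such regions held 50.3%, 70.6%, 57.4% and 66.5%, higher than U in each replicate. In the left part of U there were 57, 83, 55 and 61 of them. In the right part there were 41 and 89 in replicates 1 and 2 but 13 and 16 in replicates 3 and 4, where they held 7.88% and 9.82% of the bases in regions. The number of regions did not follow this pattern, at 759, 639, 696 and 687 in the right part against 490, 456, 476 and 470 in the left. Replicates 3 and 4 thus covered less of the right part with a like number of narrower regions, whose median width was 2580.5 and 2264 bp against 2830 and 4269 bp in replicates 1 and 2.

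The spacing of regions on U was closer to that on the Het scaffolds than to that on the arms. The median gap between neighbouring regions of U was 2008, 1335, 2602 and 2688 bp in replicates 1 to 4, against 1576, 1431.5, 1433 and 1739 bp on the Het scaffolds. On the arms, here with their centromere-side ends, it was 16883, 16884.5, 17406 and 19903 bp. Gaps of at most 1 kb made up 32.0%, 40.8%, 27.1% and 26.7% of all gaps on U, and 11.3%, 11.3%, 11.7% and 11.2% on those arms.

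The authors gave each region a score without a stated unit, whose scale may differ between lists, so values are compared only within a list and lists only by rank. The median score of U was above that of the arms in every list, and also above that of the Het scaffolds. The medians of U were 1.45, 1.39, 1.69 and 1.68 in replicates 1 to 4. They exceeded the medians of the arms by 0.259, 0.334, 0.975 and 0.917, each on the scale of its own list. They exceeded those of the Het scaffolds by 0.185, 0.146, 0.286 and 0.256. Both differences were above 0 in all 4 replicates (exact permutation p = 0.125, adjusted p = 0.146). Within its own list, the median region of U stood at percentile 63.6, 64.9, 79.1 and 78.0 of all regions, higher in replicates 3 and 4. Restricted to the upper 50% of scores, the excess over the arms was -0.10, -0.05, 0.43 and 0.37, which turned the sign in replicates 1 and 2. That 50% was chosen from the whole list by the same score that is compared, so this setting cannot decide whether the excess holds.

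At the top of the lists U held few regions in replicates 1 and 2 and most in replicates 3 and 4. U contributed 11 and 9 of the 100 top scores in the lists of replicates 1 and 2, but 87 and 83 in those of replicates 3 and 4. Of all regions in these lists it held 23.1%, 21.4%, 23.9% and 27.2%. The arms held 82, 86, 2 and 3 of the 100, against 48.6%, 53.9%, 47.7% and 44.6% of all regions. The Het scaffolds held 5, 0, 7 and 10 of the 100, against 16.4%, 13.4%, 16.0% and 16.4% of all regions. In the combined set, 4 of the 100 highest scores lay on U, which held 15.0% of its regions, and 91 lay on the arms, which held 63.8%. The highest score of U was 3.51 in replicate 1 and 2.71 in replicate 2, where those lists reached 3.77 and 3.63 elsewhere. In replicates 3 and 4 the highest scores of U, 4.88 and 4.87, were the highest of the whole list.

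The high scores of U also sat in different places and on regions of different width. In replicates 1 and 2, 59 and 70 of the 100 highest-scoring regions of U had their midpoints between 2 and 6 Mb, and 39 and 26 between 6 and 10 Mb. In replicates 3 and 4 the counts were 33 and 21 between 2 and 6 Mb, and 62 and 73 between 6 and 10 Mb. Of all regions of U, the 4 windows of 1 Mb from 2 to 6 Mb held 106, 89, 93 and 93 in replicate 1. They held 96, 101, 91 and 85 in replicate 2, 92, 94, 92 and 116 in replicate 3, and 82, 94, 96 and 113 in replicate 4. The windows from 6 to 10 Mb held 124, 156, 180 and 198 in replicate 1, and 94, 134, 167 and 152 in replicate 2. In replicates 3 and 4 they held 152, 131, 139 and 156, and 143, 129, 146 and 154. Thus 33 of 100 in replicate 3 was close to its share of all regions between 2 and 6 Mb. The right part of U held 53, 41, 77 and 84 of the 100 in replicates 1 to 4. Of all regions of U it held 759 of 1249, 639 of 1095, 696 of 1172 and 687 of 1157. The first 2 Mb held only 2, 3, 3 and 3 of the 100. Of all regions, its 2 windows of 1 Mb held 95 and 105 in replicate 1 and 76 and 90 in replicate 2. They held 84 and 110 in replicate 3 and 86 and 108 in replicate 4. The median width of the 100 highest-scoring regions of U was 5115.5 and 6551 bp in replicates 1 and 2, above the medians of all regions of U. In replicates 3 and 4 it was 2314.5 and 2007.5 bp, below those medians.

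**Figure D3:**
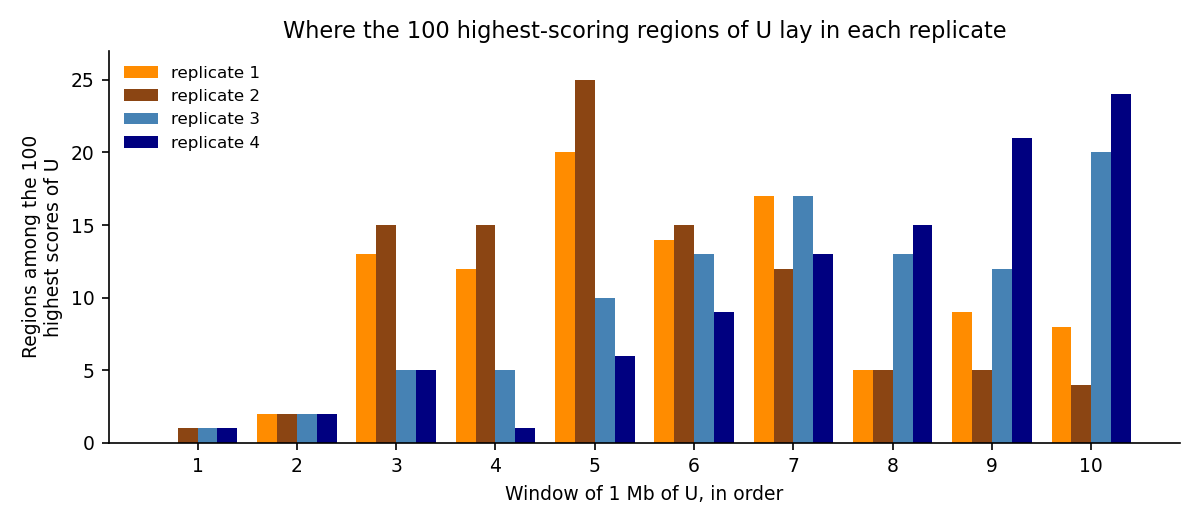
Number of regions among the 100 highest-scoring regions of U (vertical axis) in each successive window of 1 Mb (horizontal axis), by replicate, with regions beyond 10 Mb not drawn. Replicates 1 and 2 reach their highest counts, 20 and 25, in the window that ends at 5 Mb, and replicates 3 and 4 theirs, 20 and 24, in the one that ends at 10 Mb.

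Across the regions of U, score rose with width in replicates 1 and 2, weakly in replicate 3, and not in replicate 4. Spearman's rho between width and score was 0.45 over 1249 regions and 0.55 over 1095 regions in replicates 1 and 2. It was 0.10 over 1172 regions and -0.06 over 1157 regions in replicates 3 and 4. Within the left and the right part it was 0.21 and 0.13 in replicate 3, and -0.01 and 0.01 in replicate 4. On the arms rho was 0.67, 0.70, 0.76 and 0.74, alike in the 4 lists, and on the Het scaffolds 0.61, 0.75, 0.48 and 0.29. The regions of a list share a library, and these values are descriptions without a test.

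**Figure D4:**
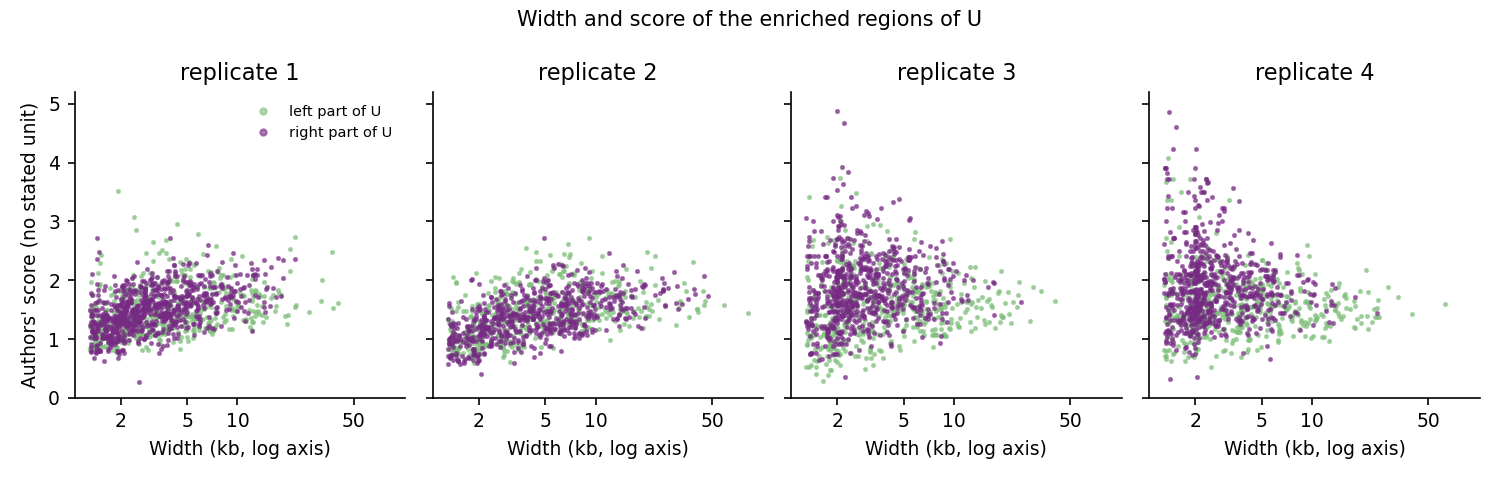
Authors' score (vertical axis, no stated unit) against width in kb (horizontal log axis) for every enriched region of U, 1 panel per replicate, with regions of the left and the right part of U in different colours. Within each list, the highest scores of replicates 3 and 4 belong to narrow regions, with the top 3 no wider than 2209 bp, whereas in replicates 1 and 2 the cloud of points rises with width. Heights are not comparable between panels, since the scale of the score may differ by list.

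The 3 highest scores of U lay on regions of up to 9108 bp in replicates 1 and 2 and of up to 2209 bp in replicates 3 and 4, although the highest of replicate 1 was also on a narrow region of 1929 bp. In replicate 1 a score of 3.51 belonged to the 1929 bp from 2841314 to 2843242, one of 3.08 to the 2414 bp between 4066675 and 4069088, and one of 2.96 to the 4328 bp between 3100133 and 3104460. In replicate 2 the top score, 2.71, belonged to the 9108 bp from 4021654 to 4030761, followed by 2.71 for 4929 bp between 5233544 and 5238472 and 2.62 for 6839 bp between 3758939 and 3765777. All 6 were overlapped by a region in each of the other replicates.

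In replicate 3 the highest scores of U were 4.88 for 2001 bp from 8601546 to 8603546, 4.66 for 2209 bp between 9639256 and 9641464, and 3.92 for 2138 bp between 5849968 and 5852105. In replicate 4 they were 4.87 for 1387 bp from 8757622 to 8759008, 4.61 for 1542 bp between 8766011 and 8767552, and 4.23 for 1476 bp between 6382980 and 6384455, a score that 1 other region of U shared. These 6 regions were overlapped in replicates 1 and 2 in every case. Replicate 4 had no region at the first and the third of the 3 from replicate 3, and replicate 3 had none at the third from replicate 4.

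The highest-scoring regions of U in replicates 3 and 4 overlapped any region of each other less often than any region of replicates 1 and 2, whose regions there were wider. Of the 100 highest-scoring regions of U in replicate 3, 97 were overlapped in replicate 1 and 100 in replicate 2, but 62 in replicate 4. Over all 1172 regions of U in replicate 3, 84.1% were overlapped in replicate 4. Of the 100 highest in replicate 4, 95 were overlapped in replicate 1, 100 in replicate 2 and 73 in replicate 3, where 86.1% of all its regions of U were. The overlapping regions had median widths of 5218 and 5105 bp in replicate 1 and 9092.5 and 9251.5 bp in replicate 2, against 2106.5 and 2342 bp in the other member of the pair. An overlap is reached more easily with wider regions. Counted against the 100 highest of the other list, the top 100 of replicate 4 met 22, 23 and 21 in replicates 1, 2 and 3, nearly equal numbers. Those of replicate 3 met 37, 35 and 21 in replicates 1, 2 and 4. By quintile of the score, the overlap of replicate 3 with replicate 4 was 89.7%, 90.2%, 85.1%, 83.8% and 71.9% from the lowest to the highest quintile. The overlap of replicate 3 with replicate 1 went the other way, at 64.1%, 86.3%, 92.3%, 92.3% and 97.9%. For replicate 4 the overlap with replicate 3 showed no such order, at 81.4%, 85.3%, 90.5%, 90.0% and 83.2%.

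The replicates shared less of U than of the Het scaffolds, base by base. Of the bases of U, 30.1% were covered in all 4 replicates, 17.0% in 3, 18.1% in 2, 12.0% in 1 and 22.7% in none. On the Het scaffolds 48.3% were covered in all 4 and 21.1% in none. Of the bases covered at least once, those covered in all 4 replicates made up 39.0% on U, 61.2% on the Het scaffolds, 65.0% on chromosome 4 and 37.7% on the arms. The left part of U had 34.0% of its bases in all 4 replicates and the right part 26.3%, although the right part had the fewer bases in none, 15.6% against 29.9%. Bases covered in replicates 1 and 2 and in neither of the other 2 made up 7.69% of the left and 16.5% of the right part. Bases covered in replicates 3 and 4 alone made up 2.32% and 1.60%. Replicate 2 alone accounted for 4.81% of the left and 11.2% of the right part, more than any other replicate alone.

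**Figure D5:**
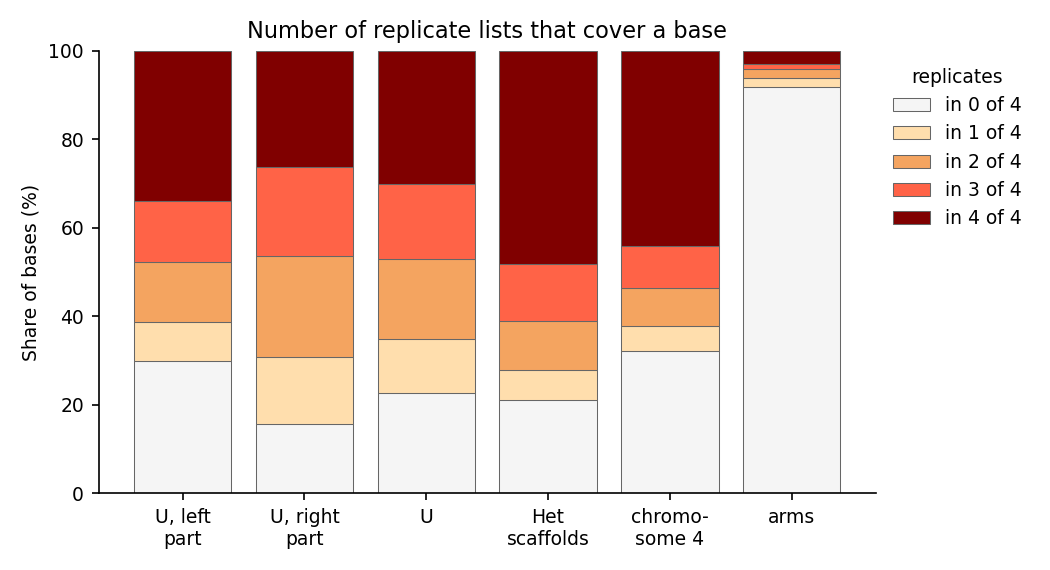
Share of bases (vertical axis, percent) covered in 0, 1, 2, 3 or 4 of the 4 replicate lists, for the left and the right part of U, all of U, the Het scaffolds, chromosome 4 and the arms. U had 30.1% of its bases in all 4 lists, against 48.3% on the Het scaffolds.

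The Jaccard index, the bases covered in both lists of a pair divided by those covered in either, was 0.724 on U for replicates 1 and 2 and 0.694 for replicates 3 and 4. The 4 pairs across lay between 0.517 and 0.606. In the left part the index was 0.745 and 0.771 within the pairs and 0.589 to 0.689 across. In the right part it was 0.707 and 0.616 within the pairs and 0.452 to 0.538 across. By windows of 1 Mb, the index of replicates 3 and 4 was 0.846 in the window to 1000000 and 0.518 in that to 10000000, and that of replicates 1 and 2 was 0.811 and 0.705. On the Het scaffolds it was 0.794 for replicates 1 and 2 and 0.866 for replicates 3 and 4. The order of the 100 windows of 100 kb by covered share was also more alike within the pairs, with Spearman's rho of 0.90 for replicates 1 and 2 and 0.94 for replicates 3 and 4. Across the pairs rho was 0.48 to 0.71. Within the left part alone the values across were 0.83 to 0.91, and within the right part 0.49 to 0.68. These values are descriptions, since windows of a library are not replicates.

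In the authors' combined set, U was covered over 79.8% of its bases, more than in any replicate. The left part was covered over 71.0% and the right part over 88.5%. Bases of the combined set that lay in no replicate made up 4.75% of U, against 2.26% of the Het scaffolds. In the right part of U, 39.1% of the bases found in no replicate were in the combined set, against 11.4% in the left part. Its 852 regions had a median width of 5965 bp, and 244 of them were at least 10 kb wide. A combined-set region that was overlapped in a replicate met 2.01, 1.52, 1.87 and 1.91 regions of replicates 1 to 4 on average. The combined set stands for the same 4 replicates and is no further sample.

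Of the 852 combined-set regions on U, 525 (61.6%) shared 1 bp or more with a region of every replicate, and 57 (6.69%) shared none with any. Over all combined-set regions of the genome the shares were 47.1% and 13.0%, and on the Het scaffolds they were 62.9% and 7.87%, close to those of U. The count depends on how overlap is judged, since 120 regions (14.1%) were overlapped over at least 50% of both regions in every replicate. The share over all combined-set regions or the Het scaffolds at that setting is not reported here. The 525 held 87.1% of the bases of the combined set on U. Their median width was 9239 bp and their median score 1.36, against 1321 bp and 0.790 for the 57. Replicate 1 overlapped 621 of the 852, replicate 2 740, replicate 3 663 and replicate 4 655. Among regions overlapped in a lone replicate, 42 were found in replicate 2, 16 in replicate 3, 10 in replicate 4 and 2 in replicate 1. Replicate 1 was the lone replicate without an overlap for 51 regions, against 3 for replicate 2, 26 for replicate 3 and 29 for replicate 4.

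Among the combined-set regions overlapped in all 4 replicates, the 10 highest scores lay between positions 2265258 and 5240637. The highest, 2.59, belonged to 3979 bp from 4368692 to 4372670, of which replicates 1 to 4 covered 93.9%, 95.9%, 71.6% and 64.3%. The second, 2.56, belonged to 9239 bp from 4021542 to 4030780, where each replicate had 1 region and covered 98.7%, 98.6%, 100% and 100%. It was the most evenly covered of the 10. The third, 2.43, was a block of 23024 bp from 3790039 to 3813062, where replicates 1 and 2 had 1 region each and reached 95.9% and 99.0%. Replicates 3 and 4 had 2 regions each there and reached 27.3% and 15.0%.

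Next, with a score of 2.40, was a region 20839 bp wide from 2727413 to 2748251, covered over 99.0%, 98.1%, 53.4% and 17.1%. After it, with 2.39, came the narrowest of the 10, 2267 bp from 2841161 to 2843427, which held the highest-scoring region of U in replicate 1. The other 5 scored between 2.30 and 2.39 and were 6211 to 11107 bp wide. Replicates 1 and 2 each covered more than replicates 3 and 4 in all of the 10 but the second and this narrowest one.

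The 10 widest combined-set regions of U lay in the first 1.5 Mb or beyond 5.5 Mb, and none between. The widest spanned 133565 bp from 282374 to 415938 with a score of 1.55, and was covered over 94.9%, 97.9%, 87.6% and 89.0%. It held 11, 3, 11 and 9 regions of replicates 1 to 4. The second spanned 90715 bp from 23538 to 114252, was covered over 88.7%, 99.7%, 84.5% and 83.7%, and held 12, 2, 8 and 7 regions. Both were covered by more than 83% in every replicate. The third, 78460 bp from 7590592 to 7669051, was less evenly covered, over 63.1%, 87.4%, 48.0% and 44.5%, with 16, 12, 12 and 12 regions.

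The others were 48586 to 69230 bp wide. The one with the highest score, 1.77, lay from 6877965 to 6947194 and was covered over 84.7%, 93.0%, 79.8% and 71.7%. The block from 586812 to 644118 was covered over 89.0%, 98.7%, 89.7% and 90.9%. The block from 1424754 to 1492079 was covered over 89.3%, 95.9%, 80.4% and 85.0%. In the 10 widest regions replicate 2 covered the most in every case.

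The highest score of the combined set on U, 2.95, belonged to a region of 1001 bp from 4214014 to 4215014 that no replicate overlapped. The next highest among regions overlapped in no replicate were 2.27 for 1001 bp from 2163067 to 2164067 and 1.35 for 1356 bp from 5053810 to 5055165. The narrowest region on U was 1301 to 1303 bp wide in the replicate lists and 1001 bp in the combined set, and 55 combined-set regions of U were narrower than 1301 bp. Of these, 28 were overlapped in no replicate and 0 in all 4. They made up 28 of the 57 regions overlapped in no replicate. The sources used here do not say whether all lists were called with equal settings.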

How the data were processed

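The files are 5 lists of enriched regions on FlyBase release 5, per the file headers: those of the 4 ChIP samples and a combined one. Bowtie 0.12.7 is named in the submitters' processing notes. The sources used here name neither the peak caller and its threshold nor the handling of reads that match several places, nor how replicates were combined. Each region carries a score that the authors deposited without a unit. Starts and ends are those the authors deposited. On U, 1 region of replicate 1, of replicate 2 and of the combined set ran past the end and was clipped. Regions were placed by midpoint. Windows of 100 kb start at the first base of a sequence, and a last window under 50% of the size was left out. Tests were exact sign-flip permutation tests over 4 replicates. Python 3.11.15, NumPy 2.4.6, SciPy 1.17.1 and Matplotlib 3.10.9 were used, and the overlap code was tested on simulated data. The members, lists and tests were chosen with earlier results of these data known. Named regions are the 10 highest scores overlapped in all 4 replicates, the 10 widest and the 3 highest scores overlapped in none. Named windows are the 3 highest, the 3 lowest and up to 3 with the widest gap each way between replicates 1 and 2 and replicates 3 and 4. The 5 longest stretches without a region are named too, and the 3 highest scores of each replicate were added after the values were seen. Bases and genes of U were not analysed here.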

Additional observations from a re-analysis of the deposited data

Results flagged for a closer look

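Among 60 values of U examined for a replicate standing apart, 4 were singled out by Dixon's test at 95% for 4 samples, where chance gives about 1 in 20, here 3. In 3 of the 4 the replicate was replicate 2. It covered 62.6% of the left part of U, against 49.7% to 50.5% in the others. It covered 58.7% of the window from 3000001 to 4000000, against 44.0% to 45.3%. It covered 62.0% of the window from 5000001 to 6000000, against 47.0% to 49.5%. In the window from 3200001 to 3300000 replicate 1 covered 16.3%, against 30.8% to 32.5% in the others.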

How the results depend on the processing

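Of 98 alternatives, 81 were sorted as the same, 12 as moved and 5 as turned in sign. For values with a sign or a replicate spread, the same meant the direction kept or the value within that spread. Counts have no such spread, and their sorting did not allow for the number of windows. Thus 40 of 100 windows, against 59 of 100, was sorted as the same, and 113 of 201 and 31 of 50 as moved. Many of the 81 could not have come out otherwise. Where all 4 replicates had 1 sign, a mean over fewer of them keeps that sign. Leaving out replicates cannot take the mean covered share of U beyond its spread. The span from the first to the last region of U left the values unchanged. The log2 ratio of U to the Het scaffolds was 0.50 by regions per Mb, against -0.26. The log2 ratio of the left to the right part of U, -0.05, was 0.35 between the first and the last 20% of U and 0.17 in replicates 3 and 4 alone, and -0.15 to 0.033 with each replicate left out. Split at 5.5 Mb, a choice made after seeing the data, it was -0.16. The mean Jaccard index, 0.612, was 0.724 for replicates 1 and 2 and 0.694 for replicates 3 and 4. The share of U covered in all replicates, 30.1%, was 23.2% in the higher-scoring 50% of each list, 31.9% with gaps of up to 1 kb merged, and 30.8% to 36.9% with a replicate left out. Keeping fewer regions cannot raise that share, and merging or leaving out a replicate cannot lower it. Combined-set regions overlapped in all 4 replicates numbered 312 of 439 after merging and 120 with 50% reciprocal overlap, against 525. Windows with replicates 1 and 2 above were 113 of 201 at 50 kb, 31 of 50 at 200 kb and 40 of 100 in the higher-scoring 50% of each list, against 59 of 100. The cause of these changes was not tested, and shares over the whole genome at these settings are not reported here. For the other results the ranges with a replicate left out were 49.9% to 57.8% for the covered share of U, 3.30 to 3.40 and -0.34 to -0.18 for the log2 ratios to the arms and the Het scaffolds, and 528 to 576 for the regions overlapped in all remaining replicates. Leaving out a replicate cannot lower that count of regions below 525. Of 204 alternatives for named regions and windows, 198 stayed within the replicate spread, and the 6 that did not were in the higher-scoring 50% of each list. Leaving out 1 of 4 replicates cannot move a mean beyond that spread, so those alternatives could not have come out otherwise. No paired analysis was possible because the inputs have no list of their own among the files used here, so ChIP and input were not set against each other. The tests reported compare parts of U or the genome within each replicate's list. Read depth is unknown.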
